A study of Rattus norvegicus with 12 samples.

Results

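The neuronal calcium sensors and calbindins are small EF-hand proteins that bind calcium in the cytosol, and 9 of their genes were taken for description here: Tesc, Ncs1, Hpca, Hpcal1, Hpcal4, Vsnl1, Calb1, Calb2 and Chp1. Their members on the array were all probe sets annotated with 1 of these symbols and no other. Such probe sets were found for 8 of the 9 genes, 15 probe sets of the 31099 on the array. Chp1 was carried only by 2 probe sets that also bear another symbol, and these were left out. The genes were chosen by family, with the signal differences between the cell lines on these same arrays already known, so their differences are given as a description, without a test.

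An EF hand is a helix-loop-helix that holds a calcium ion. In the sensor proteins, calcium binding changes the shape of the protein and exposes surfaces for partner proteins. In some proteins of the neuronal calcium sensor branch, calcium binding also pushes out a fatty acid that anchors the sensor to membranes. Calbindins are thought of mainly as buffers that bind free calcium. In insulin-secreting cells, as in neurons, a rise of cytosolic calcium starts exocytosis, and Ncs1 is a known modulator of that step.

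The study set 2 sublines of CRI-G1 side by side, an insulin-secreting line from a rat islet cell tumour. CRI-G1-RR is the original line and is rotenone resistant. CRI-G1-RS is rotenone sensitive and is a single subclone isolated from it. Rotenone blocks complex I of the mitochondrial respiratory chain, but no cell in this series was treated. Each line gave 6 samples of total RNA from separate passages, grown in high glucose medium with serum, and each sample was hybridized to 1 Affymetrix Rat 230 2.0 array. Because all samples of a line come from that line, the spread is that between passages, and a difference between RR and RS cells cannot be told apart from differences between 1 subclone and its parent.

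The signals had a trimmed mean of 250.07 on every array. Arrays correlated at 0.979 to 0.987 within a line and at 0.952 to 0.965 between lines, and no pair held the same values. CRI-G1-RS replicate 2 had the lowest mean correlation with its own line, 0.980. Islet endocrine markers were present in both lines. Of 13 measured, 6 were higher in RS cells and 0 lower (limma), and their summed signal was 29565 to 33678 in RR and 32638 to 38725 in RS cells, although the hormone genes Sst and Ppy had mean signals of 22.4 and 6.87 in RR cells and 17.2 and 7.37 in RS cells. The 2 brightest, Gcg and Ins1, were not called, with mean signals of 7329 and 7118 in RR cells and 6589 and 6495 in RS cells. The paper, by contrast, reports Ins1 as higher in RS cells on its arrays and by qRT-PCR. The summed signals of other cell types were low in both lines, at 157 to 216 in RR and 138 to 219 in RS cells for 7 acinar markers, 168 to 211 and 178 to 224 for 6 fibroblast markers, and 89.1 to 142 and 69.9 to 125 for 5 leukocyte and endothelial markers, with 0 of these genes called. Of 7 neuron and glia markers 2 were higher and 1 lower, with sums of 4869 to 5723 and 4831 to 5434. Their part in the differences below was not tested.

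The DNA before the transcription start was looked at for the 3 genes whose strongest probe set separated the lines completely. RefSeq sequence of the rat build GRCr8 was used, and an entry was found for 7 of the 9 genes, not for Calb1 and Calb2. The 250 bases before the RefSeq start lie at chr12:44216541-44216790 on the minus strand for Tesc, at chr3:34920699-34920948 on the plus strand for Ncs1, and at chr6:46206644-46206893 on the plus strand for Hpcal1. The last bases of the Tesc and Hpcal1 windows lie within the annotated span of the gene. Printed 5′ to 3′, capitals mark a GC box, GGGCGG on either strand, or TATAA.
Tesc: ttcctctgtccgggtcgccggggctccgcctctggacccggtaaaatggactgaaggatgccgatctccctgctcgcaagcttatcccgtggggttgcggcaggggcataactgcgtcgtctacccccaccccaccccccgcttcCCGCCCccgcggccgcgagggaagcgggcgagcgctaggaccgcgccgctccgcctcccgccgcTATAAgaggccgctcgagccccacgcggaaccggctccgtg
Ncs1: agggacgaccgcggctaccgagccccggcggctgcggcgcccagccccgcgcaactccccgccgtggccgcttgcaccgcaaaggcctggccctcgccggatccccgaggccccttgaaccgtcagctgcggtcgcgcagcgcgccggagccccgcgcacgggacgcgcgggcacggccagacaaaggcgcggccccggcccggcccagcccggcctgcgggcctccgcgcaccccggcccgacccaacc
Hpcal1: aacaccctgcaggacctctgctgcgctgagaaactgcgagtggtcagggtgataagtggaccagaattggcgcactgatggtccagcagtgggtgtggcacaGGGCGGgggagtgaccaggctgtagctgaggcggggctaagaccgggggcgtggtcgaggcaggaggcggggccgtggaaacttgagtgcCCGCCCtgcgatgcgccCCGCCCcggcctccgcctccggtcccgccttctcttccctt

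These windows were rich in G and C. The GC content was 71.2% for Tesc, 80.8% for Ncs1 and 67.2% for Hpcal1, where the median over 27457 RefSeq windows of the same length was 52% with quartiles of 44.4% and 60.8%. CpG dinucleotides numbered 32, 41 and 18, against a median of 6. The 3 windows differed in the motifs they held. Tesc had 1 GC box and a TATAA between 41 and 37 bases before the RefSeq start that ends the window. The annotated span of the Tesc gene begins at 44216574, inside the window, so the TATAA lies closer to the edge of that span. Hpcal1 had 3 GC boxes and a CCAAT. Ncs1 had neither of these and a single E-box, CANNTG. No member window held the cyclic AMP element TGACGTCA. Of all windows, 32.39% held a GC box, 34.29% CCAAT, 24.13% TATAA, 65.17% CANNTG and 1.697% TGACGTCA, each counted on both strands and without regard to overlap with other motifs. The windows of the other members varied as well. Hpcal4 had 66.4% GC, 19 CpG dinucleotides and 2 GC boxes, Vsnl1 60.8%, 16 and 1, Chp1 66.4%, 24 and 3, and Hpca 50.8%, 3 and 0. The Hpca window, chr5:146748359-146748608, lies wholly within the annotated span of its gene, chr5:146739978-146750961. The Hpcal4 window also lies wholly within its gene, so neither is sequence upstream of the gene. The last bases of the Chp1 window lie within its gene too. Chp1 had no probe set of its own, so its level in the lines is not known here. Whether GC content or motifs bear on the differences between the lines was not tested. The matches are letters in a window and no measurement of binding.

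Tesc and Ncs1 had the largest differences of the members. Tescalcin, the product of Tesc, is a calcium-binding protein that can inhibit the phosphatase calcineurin. The Tesc gene lies at chr12:44182741-44216574. Its only probe set, 1384202_at, had deposited signals from 35.7 to 181 in RR cells with a median of 65.0, and from 573 to 850 in RS cells with a median of 704. The lowest RS array was thus above the highest RR array. Mean signals were 81.2 ± 56.6 in RR and 700.0 ± 99.4 in RS cells (SD, n = 6 each), a ratio of 8.62. On the scale of log2(signal + 16) after quantile normalization, which is used for every fold change given here and understates changes of dim genes, Tesc was higher in RS cells by 3.03 ± 0.29 (SE). In RNA from whole cultures, fewer cells that express a gene and less RNA of it in each cell cannot be told apart.

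Ncs1 encodes neuronal calcium sensor 1, which activates a phosphatidylinositol 4-kinase and modulates voltage-gated channels and exocytosis, and it lies at chr3:34920949-34966554. Its 4 probe sets did not show the same difference. Probe set 1374103_at, of the highest mean signal, ran from 1.31 to 54.9 with a median of 24.5 in RR cells and from 188 to 359 with a median of 228 in RS cells. These groups were far apart, with means of 25.6 ± 21.2 and 243 ± 61.6 (SD, n = 6 each), and a log2 fold change of 2.77 ± 0.31 (SE). With a pseudocount of 1 it was 3.80 and with 64 it was 1.78, since some RR signals were very low.

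The other Ncs1 probe sets had much smaller differences or none beyond their error. For 1396382_at the signals were 26.9 to 60.3 in RR cells (median 51.4) and 56.2 to 77.3 in RS cells (median 67.3), with a log2 fold change of 0.38 ± 0.12. After normalization no RS array of it lay below an RR array, and it was the other Ncs1 probe set called higher, while the deposited signals overlapped at CRI-G1-RR replicate 3 and CRI-G1-RS replicate 3. Probe set 1387685_at, whose source accession is the RefSeq transcript of Ncs1, ran from 41.9 to 59.5 in RR cells and from 34.4 to 53.1 in RS cells, and its log2 fold change was -0.13 ± 0.09. The signals of 1380492_at were spread widely in both lines, 2.91 to 38.5 and 5.32 to 32.0, with a log2 fold change of 0.08 ± 0.28. The large Ncs1 difference, as distinct from the small one on 1396382_at, therefore rested on 1 of 4 probe sets, made from an expressed sequence tag as were the 2 others besides 1387685_at. Which exons each probe set covers was not analysed here. Of 4526 genes with more than 1 probe set, 41.0% had some but not all of them called between the lines (limma, adjusted p under 0.05).

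**Figure D1:**
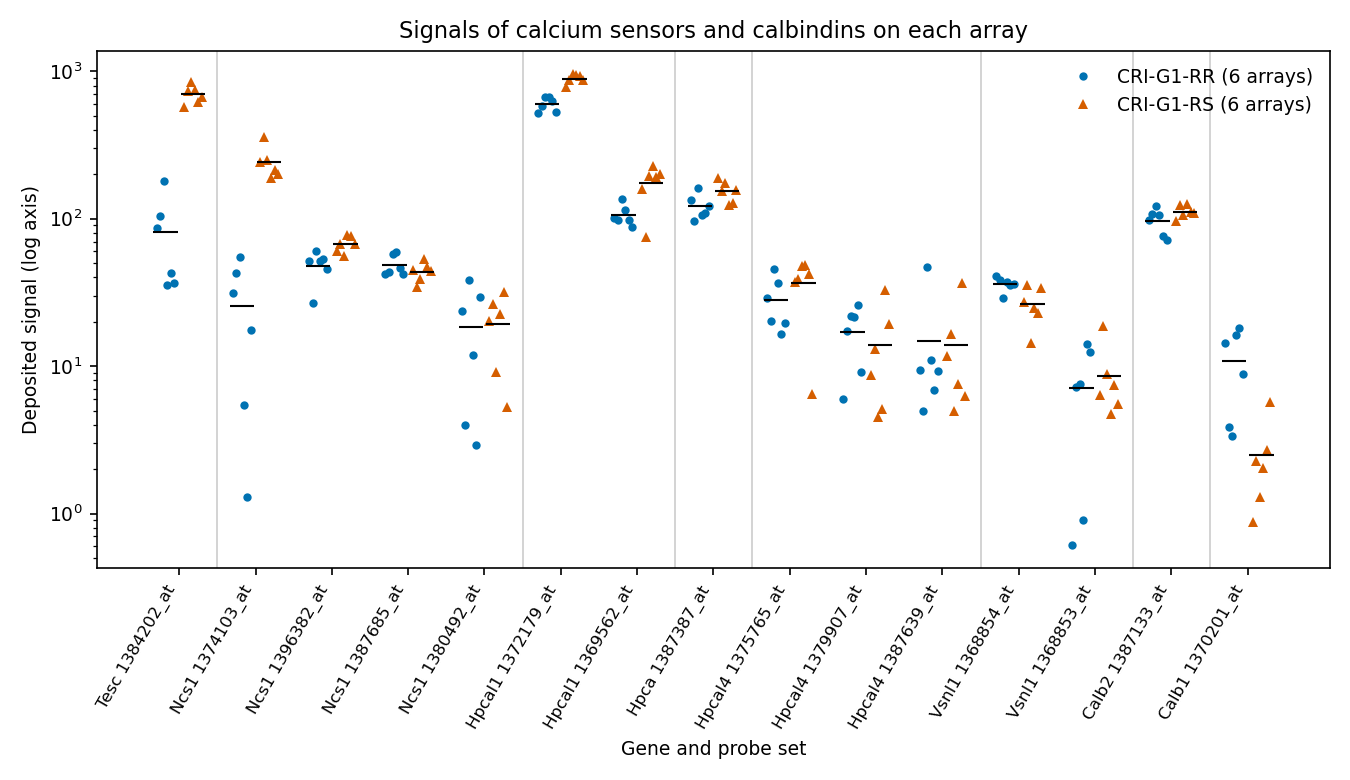
Deposited signal on a log axis for each of the 15 member probe sets, with 1 point per array (CRI-G1-RR as circles, CRI-G1-RS as triangles, 6 each) and a bar at each line's mean. The RS arrays lie between 573 and 850 for Tesc and between 188 and 359 for Ncs1 probe set 1374103_at, all above the RR arrays, while the lines overlap in the deposited signals of the other Ncs1 probe sets.

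The level of these 2 genes in RR cells was not the same in all replicates. Tesc was at 87.2 to 181 in RR replicates 1 to 3 and at 35.7 to 42.7 in replicates 4 to 6, a ratio of means of 3.23. Ncs1 on 1374103_at was at 31.5 to 54.9 and at 1.31 to 17.5. The latter signals lie near or below the pseudocount of 16, whether they exceed background was not analysed here, and no ratio is given against them. The RS arrays had no such step for Tesc, with a ratio of 1.06, and for Ncs1 the ratio was 1.41. The labels do not name these sets of replicates as batches, and no test was made. Both genes were higher in RS cells within each set. The RS to RR ratio of mean signals was 5.80 in replicates 1 to 3 and 17.7 in replicates 4 to 6 for Tesc, and 6.59 in replicates 1 to 3 for Ncs1. The log2 fold changes were 2.43 and 3.64 for Tesc and 2.36 and 3.17 for Ncs1, the last set in part by the pseudocount.

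**Figure D2:**
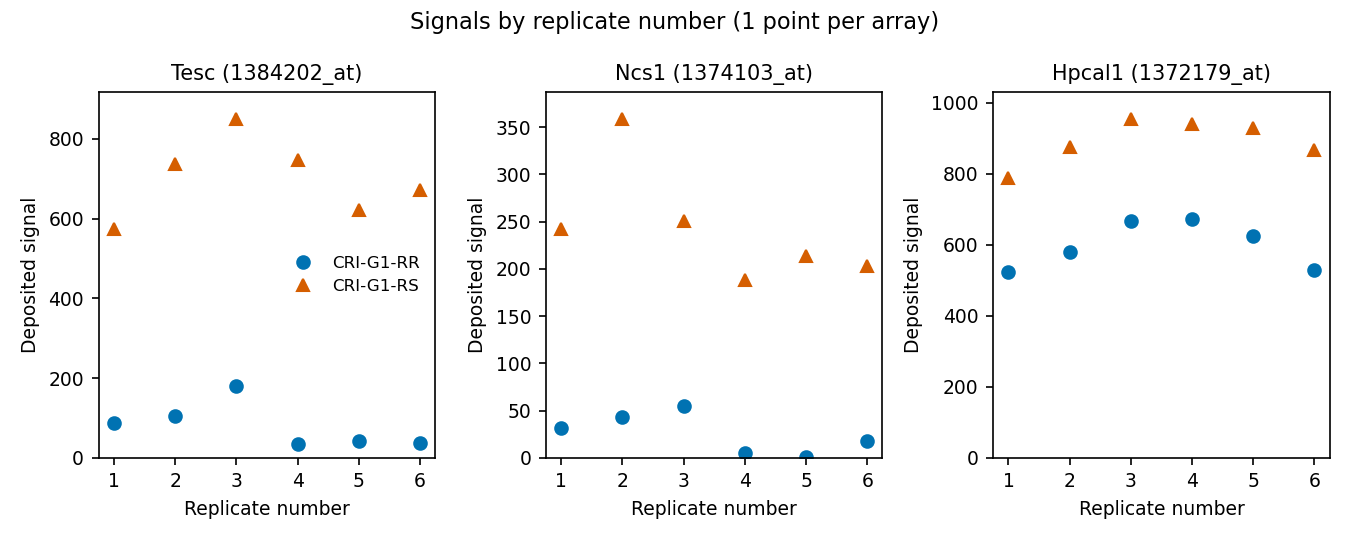
Deposited signal (linear axis from 0) against replicate number for the strongest probe set of Tesc, Ncs1 and Hpcal1, 1 point per array, with CRI-G1-RR as circles and CRI-G1-RS as triangles. RR replicates 1 to 3 lie above RR replicates 4 to 6 for Tesc and Ncs1, and not for Hpcal1. Whether the replicate numbers follow an order is not known.

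Hpcal1 encodes hippocalcin-like 1, also called visinin-like protein 3, a sensor that moves to membranes when calcium rises. It lies at chr6:46206809-46313364 and was the third gene with separate lines. Probe set 1372179_at ran from 523 to 673 in RR cells with a median of 603, and from 788 to 955 in RS cells with a median of 903. The lines did not overlap. The means were 599.6 ± 66.3 and 893 ± 62.1 (SD, n = 6 each), a ratio of 1.49 and a log2 fold change of 0.56 ± 0.08 (SE). The fold change was 0.54 in replicates 1 to 3 and 0.58 in replicates 4 to 6, so unlike Tesc and Ncs1 it was nearly the same in both sets.

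The second Hpcal1 probe set, 1369562_at, had the same fold change of 0.56 with a wider error of 0.21. Its signals were 88.2 to 136 in RR cells and 74.9 to 227 in RS cells, with medians of 100.1 and 193. The lowest of all 12 arrays was CRI-G1-RS replicate 2, and the other RS arrays lay above every RR array. Without that array the fold change was 0.77. It was 0.23 in replicates 1 to 3, where that array falls, and 0.89 in replicates 4 to 6.

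Hpca encodes hippocalcin, the sensor first found in hippocampal neurons, where it binds a clathrin adaptor and acts in calcium-driven potassium currents. Its probe set 1387387_at had signals of 97.1 to 161 in RR cells (median 116) and 124 to 189 in RS cells (median 156). The groups overlapped, with means of 122 ± 23.4 and 155 ± 25.5 and a log2 fold change of 0.29 ± 0.12. Hpcal4, a close relative of hippocalcin, had 3 probe sets, all dim. Their mean signals lay between 13.9 and 36.9 in either line, and the log2 fold changes were 0.22 ± 0.24 for 1375765_at, -0.18 ± 0.22 for 1379907_at and 0.00 ± 0.27 for 1387639_at. Each overlapped between the lines, and the errors were larger than the differences. The exception came with 1 array left out: without CRI-G1-RS replicate 6, at 6.46 where the other RS arrays were at 37.3 to 48.5, the fold change of 1375765_at was 0.44 and it was called higher.

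Vsnl1, which encodes visinin-like protein 1, a membrane-switching sensor known from neurons and from pancreatic beta cells, had low signals and 2 probe sets with different fold changes. On 1368854_at, RR cells ran from 29.1 to 41.0 (median 36.5) and RS cells from 14.4 to 35.4 (median 26.1), with a log2 fold change of -0.33 ± 0.12. On 1368853_at the signals were 0.616 to 14.1 and 4.76 to 18.7, with a log2 fold change of 0.09 ± 0.18, which was -0.01 without CRI-G1-RS replicate 2 and -0.20 in replicates 4 to 6. The lines overlapped on both. Vsnl1 was called lower on 1368854_at with all arrays, and the call was lost when any 1 of 9 arrays was left out.

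The 2 calbindins, which buffer calcium, had 1 probe set each. Calb2 encodes calretinin, and 1387133_at overlapped between the lines, at 71.9 to 121 in RR cells (median 101) and 96.5 to 125 in RS cells (median 110), with a log2 fold change of 0.17 ± 0.10. Calb1 encodes calbindin-D28k. On 1370201_at it was at 3.35 to 18.1 in RR cells with a median of 11.6, and at 0.884 to 5.68 in RS cells with a median of 2.16. The lowest RR arrays, replicates 2 and 3, lay below the highest RS array. Its log2 fold change of -0.52 ± 0.15 depended on the pseudocount, at -1.67 with a pseudocount of 1 and -0.17 with 64, since all its signals were near or below the pseudocount of 16. Both Calb1 and Vsnl1 had mean signals under 50.

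**Figure D3:**
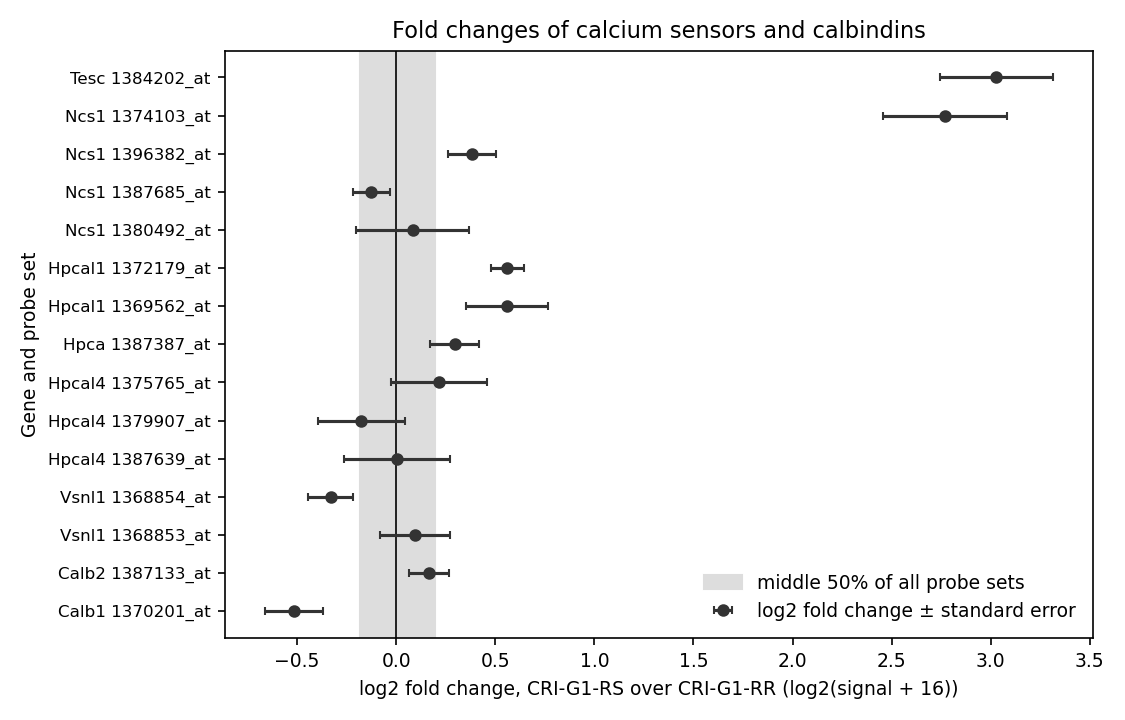
Log2 fold change of CRI-G1-RS over CRI-G1-RR (log2(signal + 16) after quantile normalization, 6 arrays each) for the 15 member probe sets, with bars of 1 standard error. The grey band from -0.19 to 0.20 holds the middle 50% of all 31099 probe sets, and Tesc (3.03) and 1 Ncs1 probe set (2.77) lie far to its right.

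Of the 15 member probe sets, 4 were called higher in RS cells and 2 lower, where 31.7% of all probe sets were called, 16.3% higher and 15.4% lower (limma, adjusted p under 0.05). After normalization the lines did not overlap in 4 of the 15, where 20.7% of all probe sets did not. All RS arrays lay above all RR arrays in these 4, as in 10.7% of all probe sets, and below them in 0, as in 9.97% of all probe sets. With each gene taken by its probe set of highest mean signal, 3 of 8 genes were called higher, Tesc, Ncs1 and Hpcal1, and 2 lower, Vsnl1 and Calb1, where 39.2% of all 14218 genes were called, 21.0% higher and 18.3% lower. The lower count was 1 when any 1 of 9 of the 12 arrays was left out and 0 with dim probe sets removed or in replicates 1 to 3 alone. Since the genes were picked with these differences known, nothing is read from the counts. The median log2 fold change was 0.17 over the member probe sets and 0.01 over all probe sets.

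The genes whose pattern over the 12 arrays was nearest to those of Tesc and Ncs1 were looked up among 11089 probe sets with 1 symbol and a mean signal of at least 100, by the root mean square difference of their centred log2 values. For Tesc they were B3galt5, which encodes a galactosyltransferase, at 0.32, Chn2, which encodes a chimaerin that acts on Rac, at 0.34, and Ap1s2, a subunit of a clathrin adaptor, at 0.35. For Ncs1 they were Chn2 at 0.39, Pakap at 0.40 and B3galt5 at 0.41. Having been chosen for their likeness over all 12 arrays, they are given without a test. That they share the step within RR cells follows from this choice. B3galt5, Chn2 and Pakap had mean signals of 31.4, 24.0 and 32.1 in RR cells and of 230, 230 and 216 in RS cells. These 3 genes thus reached a mean signal of 100 through the RS arrays only. B3galt5 was at 39.0 to 80.2 in RR replicates 1 to 3 and 3.80 to 14.4 in replicates 4 to 6, and Chn2 at 40.9 to 51.7 and 2.17 to 3.77. Ap1s2 was at 263 to 355 and 134 to 143, and Pakap at 42.4 to 54.0 and 14.7 to 19.5.

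The nearest measured genes on either side of Tesc, Ncs1 and Hpcal1 on the GRCr8 assembly were higher, lower or not called. Over all genes 39.2% were called, and nothing is read from the calls of the neighbours. Their distances ran from 4.76 kb, for Fbxw8 beside Tesc, to 652 kb, for Rfc5 beside Tesc. Beside Tesc, Fbxw8 and Fbxo21, both of which encode F-box proteins, had log2 fold changes of -0.09 ± 0.10 and 0.01 ± 0.09 and Nos1, encoding neuronal nitric oxide synthase, -0.15 ± 0.18, with limma adjusted p-values of 0.563, 0.960 and 0.617. Hrk, which encodes a cell death protein, was higher in RS cells by 0.55 ± 0.17 (adjusted p = 0.0224) and Rfc5, encoding a subunit of a DNA clamp loader, was lower, by -0.40 ± 0.09 (adjusted p = 0.00520). Rnft2 had -0.08 ± 0.08 (adjusted p = 0.536). Beside Ncs1, Hmcn2 and Gpr107 were lower in RS cells by -0.97 ± 0.22 (limma, adjusted p = 0.00437) and -0.52 ± 0.09 (adjusted p = 7.40e-04), opposite to 1374103_at, and the other 4 neighbours were not called. Around Hpcal1, Cpsf3 was higher (0.39 ± 0.09, limma adjusted p = 0.00333), Odc1, which encodes ornithine decarboxylase, and Itgb1bp1 were lower (-0.26 ± 0.05 and -0.23 ± 0.08, adjusted p = 9.04e-04 and 0.0461), and the other 3 were not called.

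The members stand among other calcium genes, and 8 lists of these were made by function, with each gene taken by its probe set of highest mean signal. Earlier results of these data were known when the lists were made, so nothing is read from the counts per list. Of 93 genes measured out of 108 symbols listed, 25 were higher in RS cells, 15 were lower and 53 were not called (limma, adjusted p under 0.05), where 21.0% of all genes were higher and 18.3% lower. The median log2 fold change was 0.07 over the lists and 0.02 over all genes.

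Among proteins that bind or are bound by the members, 6 of 17 genes rose and 3 fell, with a median of 0.23. Kcnd2, which encodes the pore of an A-type potassium channel, rose by 0.87 ± 0.13 (limma, adjusted p = 1.61e-04), from a mean signal of 44.5 to 95.9. Kcnip2, an EF-hand subunit of the same channel, from the list of other sensors, rose on its strongest probe set by 1.37 ± 0.11 (adjusted p = 8.94e-07), from 25.1 to 90.6, and 1 of its 3 probe sets was called. Gpat4, which encodes an acyltransferase of glycerolipid synthesis that the Chp1 protein binds, rose by 0.55 ± 0.09 (adjusted p = 2.86e-04), and Impa1, the inositol monophosphatase that calbindin-D28k binds, by 0.46 ± 0.06 (adjusted p = 6.50e-05). Ric8a, a nucleotide exchange factor for G proteins that binds the Ncs1 protein, fell by 0.45 on the log2 scale with an SE of 0.09 (adjusted p = 0.00156). Trpv5, a calcium channel, had -0.05 ± 0.12 (adjusted p = 0.804).

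Of 10 calcineurin and CIB genes measured, 6 were higher in RS cells and 0 lower, where 21.0% of all genes were higher and 18.3% lower. Their median log2 fold change was 0.46. Calcineurin is the calcium-activated phosphatase that tescalcin can inhibit. Its catalytic subunit gene Ppp3cb rose by 0.63 ± 0.07 (limma, adjusted p = 1.63e-05), called on all 3 of its probe sets. Rcan1 and Rcan2, which encode regulators of calcineurin, rose by 0.68 ± 0.06 (adjusted p = 1.21e-06) and 1.90 ± 0.19 (adjusted p = 5.30e-06), the latter from 27.7 ± 14.0 to 141 ± 21.8 in mean signal. Cib2, encoding another EF-hand protein, rose by 0.99 ± 0.14 (adjusted p = 9.65e-05), and Cib1 had -0.05 ± 0.11 (adjusted p = 0.781).

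Of 13 other calcium sensors measured, 3 rose and 1 fell. Besides Kcnip2 these were Ncald, which encodes neurocalcin delta, a near relative of the members, with 0.54 ± 0.08 (limma, adjusted p = 2.00e-04) on 1 of 2 probe sets, Kcnip3, with 0.43 ± 0.10 (adjusted p = 0.00387), and Calml4, a calmodulin-like protein gene, with -0.61 ± 0.07 (adjusted p = 1.51e-05). Calm2, which encodes calmodulin, was at 0.11 ± 0.04 (adjusted p = 0.0811). The 2 other buffer genes measured were not called, and Pvalb, encoding parvalbumin, had -0.23 ± 0.28 (adjusted p = 0.612).

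EF-hand proteins of other compartments went both ways. Among 7 penta-EF-hand genes, Capns1, encoding the small calpain subunit, rose by 0.19 ± 0.05 (limma, adjusted p = 0.00723), and was not called with median centring, at 0.13. Sri and Capn2, which encode sorcin and a calpain, fell by 0.36 and 0.25 on the log2 scale (adjusted p = 3.06e-04 and 0.00215). Pdcd6 had -0.17 ± 0.07 (adjusted p = 0.103). Among 8 genes of the secretory pathway, Nucb2, encoding the precursor of nesfatin, rose by 0.71 ± 0.09 (limma, adjusted p = 4.02e-05), Calu and Rcn2 fell by 0.51 and 0.35 on the log2 scale (adjusted p = 0.00436 and 6.42e-04), and Rcn1 had -0.12 ± 0.05 (adjusted p = 0.0691).

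Calcium pumps, exchangers and store channels were split, with 5 of 25 higher and 5 lower. The plasma membrane pump genes differed in direction. Atp2b2 rose by 1.68 ± 0.09 (limma, adjusted p = 3.11e-08), from a mean signal of 117 to 413, and Atp2b1 fell by 0.89 on the log2 scale (adjusted p = 5.18e-06), from 1391 to 737. The release channel genes did so too, with Itpr2 at 1.02 ± 0.11 (adjusted p = 1.25e-05) on 1 of its 2 probe sets and Ryr2 at -0.96 ± 0.10 (adjusted p = 5.88e-06). Atp2a2, encoding the pump that fills the endoplasmic reticulum, was not called on its strongest probe set (0.04 ± 0.05, adjusted p = 0.582). Of 11 calmodulin-dependent kinase genes, 3 rose and 2 fell. Camk1g rose by 2.25 ± 0.28 (limma, adjusted p = 3.57e-05), from 42.3 ± 27.0 to 239.8 ± 41.9 in mean signal. Dapk1 rose by 0.64 ± 0.08 and Camk4 by 0.46 ± 0.12 (limma, adjusted p = 2.69e-05 and 0.0124). The Camk4 call was on 1 of its 2 probe sets, where the lines overlapped. Camk1 fell by 0.38 on the log2 scale (limma, adjusted p = 0.00104), and Camk2d had 0.14 ± 0.06 (adjusted p = 0.0738).

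**Figure D4:**
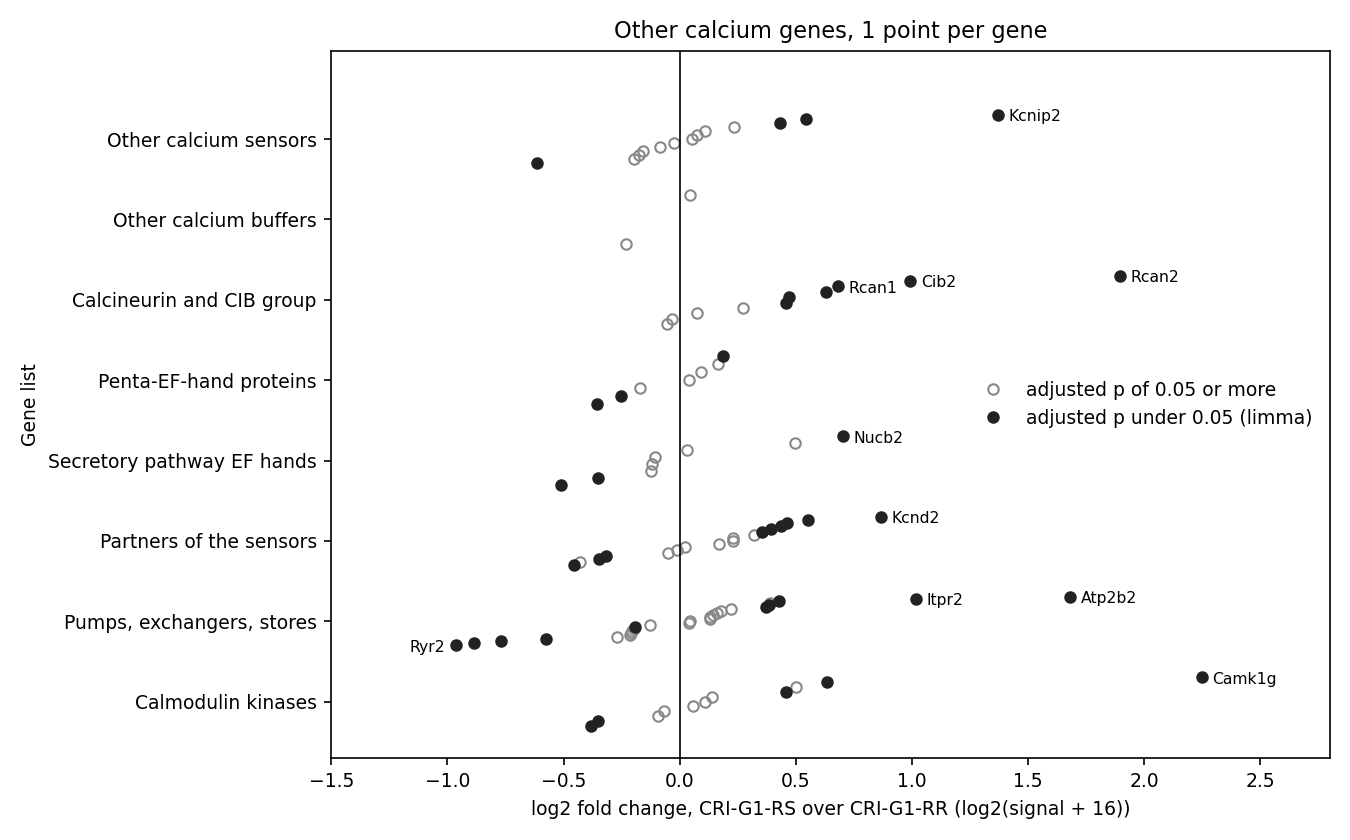
Log2 fold change of CRI-G1-RS over CRI-G1-RR for 93 other calcium genes in 8 lists, 1 point per gene, filled where the limma adjusted p was under 0.05. Of 10 calcineurin and CIB genes 6 are filled and all 6 lie to the right of 0, while pumps and store channels lie on both sides. Over all genes on the array, 21.0% were called higher and 18.3% lower. The lists were made with earlier results of these data known.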

How the data were processed

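Total RNA from 12 CRI-G1 cultures was measured on Affymetrix Rat 230 2.0 arrays. The values deposited by the authors are linear signal intensities, 1 per probe set. GCOS 1.4 is the tool in the submitters' processing notes. All arrays had nearly the same trimmed mean. The study's methods describe log2 values of robust multi-chip averaging, which these are not, so signals were quantile normalized and taken as log2(signal + 16). Lines were compared by limma 3.58.1 in R 4.3.3 (lmFit, eBayes) with cell type as the only term, two-sided, with Benjamini-Hochberg adjustment over all 31099 probe sets. Means and SDs are of deposited signals. The fit was tested on simulated data. Symbols came from the platform annotation. Each gene was taken by its probe set of highest mean signal, members by all. Members and lists were chosen with earlier results of these data known. Named were every member, up to 4 called genes of largest change per list, the brightest gene not called, and the 3 genes most like Tesc and Ncs1. Measured neighbours, 3 on each side, were added. Alternatives were other scalings, pseudocounts of 1 and 64, a signal filter, blocks, a variance trend, another choice of probe set, and fewer arrays. Scan dates and detection calls played no part. The number of arrays limits the precision.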

Additional observations from a re-analysis of the deposited data

Results flagged for a closer look

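Of 106 groups of 6 arrays, over 53 probe sets named above, 11 held an array set apart from the others of its line by a gap larger than chance gives in about 1 of 20 groups, and 5 of these were CRI-G1-RS replicate 2. Among members, Ncs1 on 1374103_at had 359 in CRI-G1-RS replicate 2, with the other RS arrays at 188 to 251, and without that array its log2 fold change was 2.66. Vsnl1 on 1368853_at had 18.7 in CRI-G1-RS replicate 2 (others 4.76 to 8.92). Hpcal4 had 6.46 in CRI-G1-RS replicate 6 on 1375765_at (others 37.3 to 48.5), and 46.9 in CRI-G1-RR replicate 3 and 36.9 in CRI-G1-RS replicate 5 on 1387639_at (others 4.96 to 11.0 and 4.95 to 16.6). Among other genes, Pvalb had 43.1 in CRI-G1-RS replicate 6 (others 5.37 to 9.46). Ppp3cb had 488 in CRI-G1-RR replicate 3 (others 585 to 642) and 814 in CRI-G1-RS replicate 2 (others 928 to 984). Sri had 1925 in CRI-G1-RS replicate 4 (others 1698 to 1783), Pdcd6 had 1057 in CRI-G1-RS replicate 2 (others 1314 to 1401), and Ap1s2 had 922 in CRI-G1-RS replicate 2 (others 1285 to 1476).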

How the results depend on the processing

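No member, named list gene or gene most like Tesc and Ncs1 changed direction past the threshold under any alternative run. Neighbours on the chromosome and cell type markers were not looked at under the alternatives. Tesc, Ncs1 and Hpcal1 were the member genes called higher in RS cells under every setting, joined by Hpca without CRI-G1-RR replicate 3 or CRI-G1-RS replicate 4 and by Hpcal4 without CRI-G1-RS replicate 6. Of the 2 called lower, 1 remained, Calb1, under the deposited scaling only, a pseudocount of 1, replicates 1 to 3 against 4 to 6 as a block, the intensity trend, or replicates 4 to 6 alone, and 0 with probe sets under a mean signal of 50 left out, as both genes are, or with replicates 1 to 3 alone. Vsnl1 was lost when any array but CRI-G1-RR replicate 3, CRI-G1-RS replicate 2 or CRI-G1-RS replicate 6 was left out. Leaving out 1 array in turn gave 3 to 4 member genes higher and 1 to 2 lower, 25 to 26 and 14 to 16 other calcium genes, and 4705 to 5199 and 4419 to 4811 probe sets. The log2 fold change then lay between 2.88 and 3.27 for Tesc, 2.55 and 2.95 for Ncs1 and 0.52 and 0.60 for Hpcal1. With 3 arrays a line, which also has fewer samples, 2576 probe sets were higher and 2533 lower in replicates 1 to 3, 3180 and 3089 in replicates 4 to 6, and 8 other calcium genes were lower in replicates 1 to 3. Pseudocounts of 1 and 64 gave 3.31 and 2.45 for Tesc and 3.80 and 1.78 for Ncs1 on 1374103_at. Passages of the lines were collected in pairs per the labels, which do not say that a replicate number marks a pair, so whether the numbers pair the samples is not known. Deviations of same-numbered arrays from their line correlated at -0.05 to 0.16 over 18485 probe sets, and only replicates 1 and 4 correlated best with their own number. With the replicate number as a block, 4 member genes were higher, Hpca added, and 2 lower, 26 and 14 other calcium genes and 4730 and 4474 probe sets were called, 8781 of them also without the block. Recomputed values were also counted over the named list genes and the genes most like Tesc and Ncs1. Of these, 811 kept their side of the threshold, 11 newly passed it and 13 no longer did. The 13 all came with median centring or 3 arrays a line. Dim probe sets, those of Calb1, Vsnl1 and Hpcal4 among them, have signals near the pseudocount and so give little precision.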
